A study of Homo sapiens with 2 samples.

Results

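Sphingosine-1-phosphate (S1P) is a signalling lipid, and 10 genes for its synthesis, transport, breakdown and reception were followed in the human cell line FaDu, derived from a squamous carcinoma of the hypopharynx. The 10 genes were taken by symbol from the 16951 genes of the deposited table, and all 10 were found. They were chosen by the low SPNS2 read count of library D1 relative to library C1, so the D1 against C1 values below are a description of these genes and support nothing by themselves. The study compared FaDu cells carrying a control shRNA with FaDu cells carrying an shRNA against KIF2C, a microtubule-depolymerizing kinesin, with 1 total RNA library of each on day 2, with the growth and movement of the cells as the stated interest. The series' design text calls the control cells transfected with blank vectors, and no parental FaDu library was analysed here. The deposited columns carry the codes C1 and D1, which no label spells out. If the letters stand for control and knock-down, KIF2C goes against them, with 783 C1 reads against 3036 D1 reads, a ratio of 4.13-fold. C1 and D1 therefore serve as the names of the libraries, and no difference below is given as an effect of the knockdown. With 1 library per group there is no replicate error and no test, and every interval is a 95% interval that covers counting error only.

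S1P is made inside cells by the sphingosine kinases SPHK1 and SPHK2. SPNS2, a major facilitator transporter of the spinster family, carries it out of the cell, and G protein-coupled receptors of the S1PR family read it at the surface. Endothelial cells are the best known users of SPNS2, through which they supply lymph with the S1P that guides lymphocytes. The phosphatases SGPP1 and SGPP2 return S1P to sphingosine in the endoplasmic reticulum, and the lyase SGPL1 cleaves it irreversibly, which is the exit from the sphingolipid pathway. In carcinoma cells, S1P receptors are known to act on migration and survival, with effects that differ between receptors.

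The promoters of 2 receptor genes whose mRNAs differed in opposite directions are shown first, with that of SPHK1, the kinase whose mRNA differed in the same direction as S1PR5. Each line holds the 250 bases before the RefSeq gene start in GRCh38.p14, 5′ to 3′ on the gene's strand, and capitals mark matches on either strand to the motifs searched. The S1PR3 window lies on the plus strand of chromosome 9 at chr9:88990613-88990862, the SPHK1 window on the plus strand at chr17:76382954-76383203, and the S1PR5 window on the minus strand at chr19:10517966-10518215.
S1PR3: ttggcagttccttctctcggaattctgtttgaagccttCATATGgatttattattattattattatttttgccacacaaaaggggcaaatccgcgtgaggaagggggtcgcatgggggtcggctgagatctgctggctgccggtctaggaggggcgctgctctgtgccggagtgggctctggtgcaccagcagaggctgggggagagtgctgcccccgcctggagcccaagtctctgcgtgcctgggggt
SPHK1: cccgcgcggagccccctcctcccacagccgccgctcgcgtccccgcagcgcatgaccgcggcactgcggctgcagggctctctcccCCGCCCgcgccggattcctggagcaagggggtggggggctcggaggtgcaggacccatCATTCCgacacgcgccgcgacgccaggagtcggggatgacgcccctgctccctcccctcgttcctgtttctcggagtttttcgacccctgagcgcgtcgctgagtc
S1PR5: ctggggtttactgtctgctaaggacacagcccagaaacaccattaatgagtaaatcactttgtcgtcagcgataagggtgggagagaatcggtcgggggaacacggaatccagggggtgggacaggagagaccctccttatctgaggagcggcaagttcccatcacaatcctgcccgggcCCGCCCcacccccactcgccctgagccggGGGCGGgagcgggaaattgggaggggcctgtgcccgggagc
The motifs were the GC box GGGCGG, the AP-1 site TGANTCA, the E-box CANNTG and the TEAD site GGAATG. S1PR3 held 1 E-box, SPHK1 held 1 GC box and 1 TEAD site, and S1PR5 held 2 GC boxes. Of 27305 RefSeq promoters of the same length, 42.3% held a GC box, 6.6% an AP-1 site, 62.2% an E-box and 11.9% a TEAD site. None of these 3 windows held the AP-1 letters. CpG dinucleotides numbered 10 in the S1PR3 window, 13 in that of S1PR5 and 31 in that of SPHK1, against a median of 11 over all promoters. A promoter of the same table was matched for 8 of the 10 genes, and those of SPNS2 and SGPP1 were not. Among those not shown, SPNS1 held 1 GC box and 5 E-boxes, and SGPL1 1 GC box and 1 E-box. S1PR2 held 3 GC boxes and 1 E-box, SGPP2 1 AP-1 site and 2 E-boxes, and SPHK2 none of the motifs. The 3 windows shown were picked with their ratios known, and a link of motifs to direction was not tested. A match says only that these letters are present in the window, and the absence of one says only that they are not.

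The deposited estimated counts summed to 18189742 in C1 and 18560024 in D1. After scaling by TMM (a trimmed mean of gene-wise ratios), 1 count per 1000000 (CPM) was worth 19.0 reads in C1 and 17.8 in D1. All 10 genes passed the filter of 1 CPM in either library. Squamous markers were present, with TPM (transcripts per 1000000, a length-corrected level) of 46.3 to 835.0 in C1 and 112.1 to 2061 in D1 over 8 genes. Of these 8, 5 were at least 2-fold higher in D1, beside 2.4% of all genes past the filter, and the part of this difference in the S1P gene values was not tested. The fibroblast list had 4 of its 7 genes in the table, with TPM summing to 4.13 in C1 and 1.74 in D1. COL1A1 made up most of this, with 199 and 82 reads (4 and 1.54 TPM, log2 ratio -1.18). The erythroid and platelet list had 2 of 6 genes, summing to 0.48 in each library. The leukocyte list had 5 of 7 genes summing to 92.5 and 81.0. Most of it was CD68 (69.9 and 67.5 TPM), a lysosomal glycoprotein gene that epithelial cells also express. CD14 of the same list had 215 and 120 reads (18.15 and 9.75 TPM), a log2 ratio of -0.75 (interval -1.09 to -0.42). The pan-leukocyte gene PTPRC had 1.25 and 0.75 TPM, LYZ 2.56 and 2.67, and CD3E 0.61 and 0.25.

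SPNS2, the S1P exporter, was the member that stood farthest from equality. It had 894 reads in C1 and 85 in D1, or 31.63 and 2.77 TPM. Nearly all of the SPNS2 reads were thus in C1. Its level was 9.83-fold lower in D1, a log2 ratio of -3.30 (interval -3.64 to -2.98). Among 3515 genes whose mean CPM lay within 2-fold of its own, SPNS2 ranked 3rd from the lowest ratio. The gene (NCBI gene 124976) spans 4498881 to 4539035 of chromosome 17. In C1, its TPM was above that of 70.2% of all genes in the table, and in D1 above that of 36.1%.

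The SPNS2 gene shares 132 bases at one end with MYBBP1A, a nucleolar transcriptional regulator gene on the other strand. MYBBP1A had 1870 and 2990 reads, a log2 ratio of 0.77 (0.68 to 0.85), so the overlapping gene was higher in D1 where SPNS2 was lower. Whether counting used strand is not given in the sources used here. SPNS3, a less studied spinster gene 10677 bases before SPNS2, had 13 and 4 reads. Of 8 genes within 200 kb of SPNS2 that passed the filter, none was 2-fold higher or lower. Over all genes past the filter, 2.4% were at least 2-fold higher and 4.54% at least 2-fold lower, so nothing is read from this count. The log2 ratios of the 8 genes ran from -0.69 to 0.77 with a median of -0.06. SPNS3, which did not pass the filter, had a log2 ratio of -1.49 with an interval that spanned 0 (-3.68 to 0.08). A cause shared along this stretch of the chromosome was not tested. This window was chosen after the SPNS2 value was known.

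Because SPNS2 is best known from endothelium, endothelial markers are given beside it. Of 7 listed, 4 genes were in the table, with summed TPM of 29.95 in C1 and 8.57 in D1. CDH5, which encodes VE-cadherin, made up nearly all of this, with 1000 reads in C1 and 249 in D1 (28.7 and 6.82 TPM, log2 ratio -1.91). The platelet and endothelial adhesion gene PECAM1 had 0.21 and 0.22 TPM, the von Willebrand factor gene VWF 0.29 and 0.36, and the transcription factor gene ERG 0.75 and 1.17. By reads, VWF had 22 and 29 (log2 ratio 0.48, interval -0.36 to 1.36) and ERG 21 and 40 (1.004, interval 0.22 to 1.86). CDH5 was thus lower in D1 like SPNS2, while ERG was higher and VWF was not separated from equality, both at low levels in each library. The part of CDH5-expressing cells in the SPNS2 difference was not tested. Fewer cells with the mRNA and less mRNA per cell cannot be told apart in bulk RNA, here or for any gene below.

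SPNS1, a spinster family lysosomal transporter of lysophospholipids, was the most abundant of the 10 genes per length in both libraries. It had 2106 reads in C1 and 1505 in D1, or 115.88 and 78.7 TPM. Its log2 ratio was -0.39 (-0.49 to -0.30), in the same direction as SPNS2 and much smaller. The TPM ratio of SPNS2 to SPNS1 was 0.273 (0.252 to 0.295) in C1 and 0.0352 (0.0279 to 0.0438) in D1. By read counts, the ratio of SPNS2 to SPNS1 was 7.52 times larger in C1 than in D1 (5.95 to 9.59). This and the other ratios of ratios below were computed from read counts, not from TPM, and do not depend on how the libraries were scaled.

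**Figure D1:**
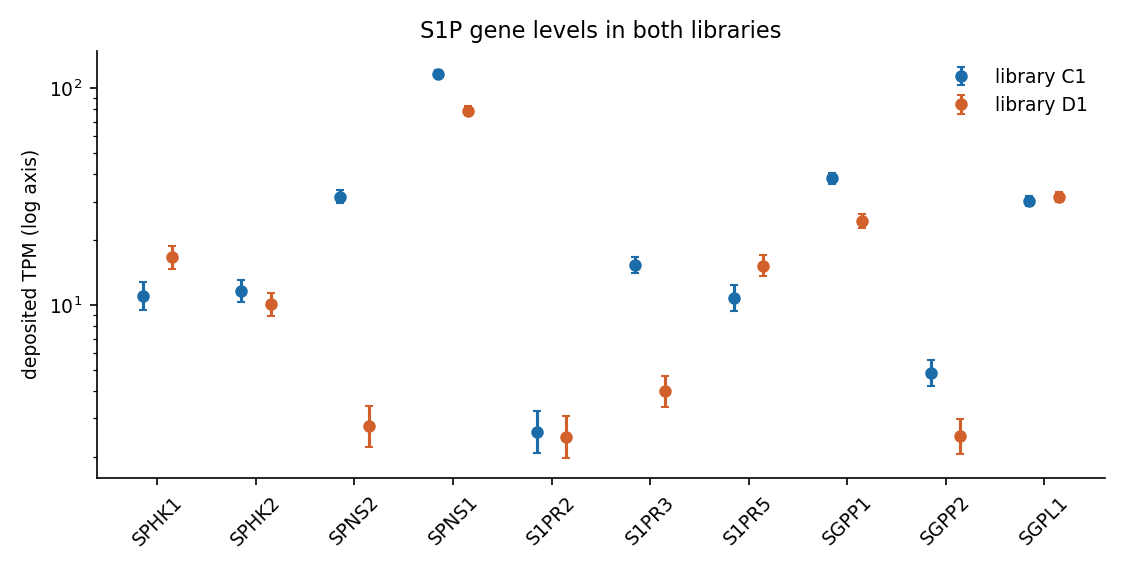
Deposited TPM (log axis) of the 10 S1P genes in C1 (blue) and D1 (orange), with points for the single library and bars for 95% Poisson counting intervals. SPNS2 goes from 31.63 TPM in C1 to 2.77 in D1 and S1PR3 from 15.28 to 4.01, while SPHK1 and S1PR5 are higher in D1.

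Of the receptors, S1PR3 was lower and S1PR5 higher in D1. S1PR3, a receptor that couples to several classes of G protein, had 571 reads in C1 and 156 in D1, or 15.28 and 4.01 TPM. It was 3.43-fold lower in D1, with a log2 ratio of -1.78 (-2.05 to -1.52), the 23rd lowest among 3657 genes of like mean CPM. The gene lies on chromosome 9 from 88990863 to 89005155. S1PR5, a receptor best known from oligodendrocytes and natural killer cells, had 217 and 322 reads, or 10.77 and 15.21 TPM. Its ratio of 1.58-fold, a log2 ratio of 0.66 (0.41 to 0.91), ranked 170th from the highest among 3463 genes of like mean CPM and stayed under 2-fold. S1PR5 lies on chromosome 19 from 10512742 to 10517965.

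S1PR2, a receptor known for restraining cell migration, was the least abundant of the 10 genes per length in both libraries, in D1 within counting error of SGPP2. It had 82 reads in C1 and 81 in D1, or 2.61 and 2.47 TPM. Its log2 ratio of 0.07 had an interval from -0.39 to 0.53, so a difference in either direction was not detectable at this depth, and its sign changed with the scaling. S1PR1, the receptor of lymphocytes and endothelium, had 1 and 3 reads, and S1PR4, a receptor of blood cells, had 2 and 3. These counts are at or under the floor of 3 reads used here, and no fold is given for them.

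The order of the receptors by level therefore differed between the libraries. In C1 the TPM of S1PR3 was 1.42 times that of S1PR5 (1.21 to 1.67), and in D1 it was 0.264 times (0.216 to 0.320). By read counts, the ratio of S1PR3 to S1PR5 was 5.43 times larger in C1 than in D1 (4.21 to 7.01). Against S1PR2, S1PR3 stood at 5.85 times its TPM in C1 (4.64 to 7.47) and at 1.62 times in D1 (1.23 to 2.15). S1PR5 stood at 4.13 times the TPM of S1PR2 in C1 (3.19 to 5.39) and at 6.16 times in D1 (4.81 to 7.96). S1PR3 was thus the leading receptor mRNA of C1 and S1PR5 that of D1, beyond counting error in each.

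**Figure D2:**
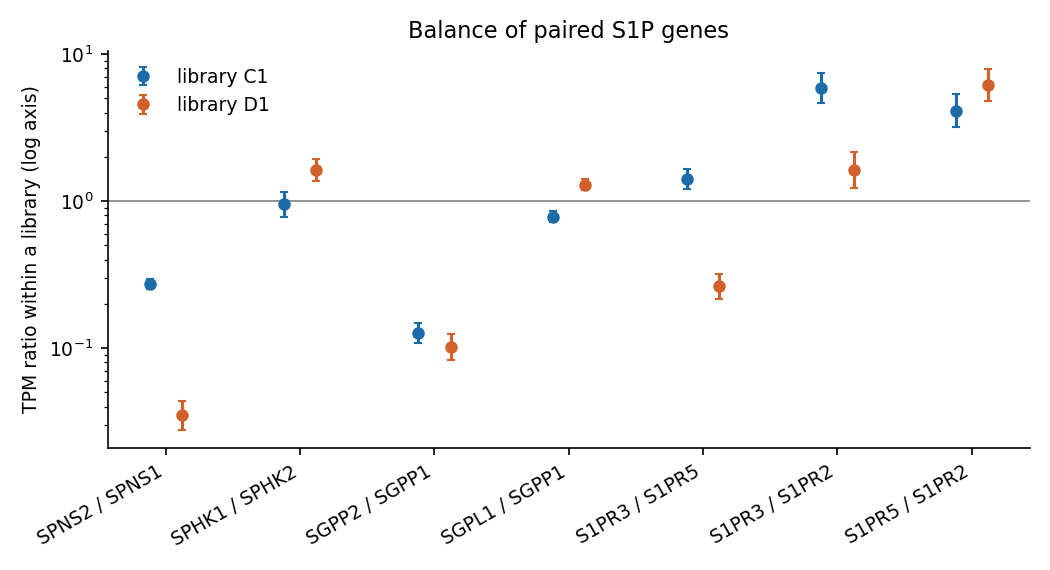
TPM ratio of 7 pairs of S1P genes within C1 (blue) and within D1 (orange) on a log axis, with 95% counting intervals and a line at equality. S1PR3 to S1PR5 lies above the line in C1 (1.42) and below it in D1 (0.264), and SGPL1 to SGPP1 crosses it the other way (0.786 and 1.30).

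The kinases that make S1P differed from each other. SPHK1, the mainly cytoplasmic kinase that growth factors move to the plasma membrane, had 175 reads in C1 and 271 in D1, or 11.05 and 16.59 TPM. It was 1.65-fold higher in D1, a log2 ratio of 0.72 (0.442 to 1.004), and ranked 122nd from the highest among 3108 genes of like mean CPM. SPHK2, the kinase found in nucleus and mitochondria as well, had 297 and 267 reads, or 11.59 and 10.12 TPM. Its log2 ratio of -0.06 had an interval that spanned 0 (-0.31 to 0.18). Per length, the kinases were level in C1, with a TPM ratio of SPHK1 to SPHK2 of 0.953 (0.786 to 1.15), whereas SPHK1 was 1.64 times SPHK2 in D1 (1.38 to 1.95). The ratio of ratios by read counts was 1.72 (1.33 to 2.23). SPHK2 shares 376 bases with DBP, a circadian transcription factor gene on the other strand, which had 70 and 69 reads.

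Of the genes that remove S1P, the phosphatases were lower in D1 and the lyase was slightly higher, all by less than 2-fold. SGPP1, the more widely expressed S1P phosphatase, had 1103 reads in C1 and 730 in D1, or 38.31 and 24.35 TPM, with a log2 ratio of -0.50 (-0.64 to -0.37). SGPP2, a phosphatase known to be induced by inflammatory signals, had 206 and 112 reads, or 4.86 and 2.49 TPM, with a log2 ratio of -0.79 (-1.13 to -0.45). Both phosphatases were lower in D1, and the TPM ratio of SGPP2 to SGPP1 was 0.127 (0.109 to 0.147) in C1 and 0.102 (0.0831 to 0.125) in D1. By read counts, their ratio of ratios of 0.821 had an interval that included equality (0.635 to 1.06). SGPL1, the lyase, had 1287 and 1421 reads, or 30.12 and 31.57 TPM, with a log2 ratio of 0.23 (0.12 to 0.34). That log2 ratio was smaller with plain library totals (0.11), the deposited TPM (0.07) and FPKM (0.10), each below the interval given. The TPM intervals of SGPL1 in C1 (28.5 to 31.8) and D1 (29.9 to 33.3) overlapped. How far SGPL1 lay from equality thus depended on the scaling. The ratio of SGPL1 to SGPP1 was 0.786 (0.725 to 0.853) in C1 and 1.30 (1.18 to 1.42) in D1, and the ratio of ratios by read counts was 1.67 (1.48 to 1.88). The lyase thus lay below the main phosphatase per length in C1 and above it in D1.

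By TPM, the order in C1 ran from SPNS1 through SGPP1, SPNS2, SGPL1, S1PR3, SPHK2, SPHK1, S1PR5 and SGPP2 to S1PR2. The counting intervals of SPNS2 and SGPL1 overlapped in that library, as did those of SPHK2 and SPHK1 and those of SPHK1 and S1PR5. In D1 the order ran from SPNS1 through SGPL1, SGPP1, SPHK1, S1PR5, SPHK2, S1PR3, SPNS2 and SGPP2 to S1PR2. There the intervals of SPHK1 and S1PR5 overlapped, and so did each neighbouring pair from S1PR3 down to S1PR2. SPNS2 moved from rank 3 to rank 8 and lay in D1 among the least abundant of these mRNAs.

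**Figure D3:**
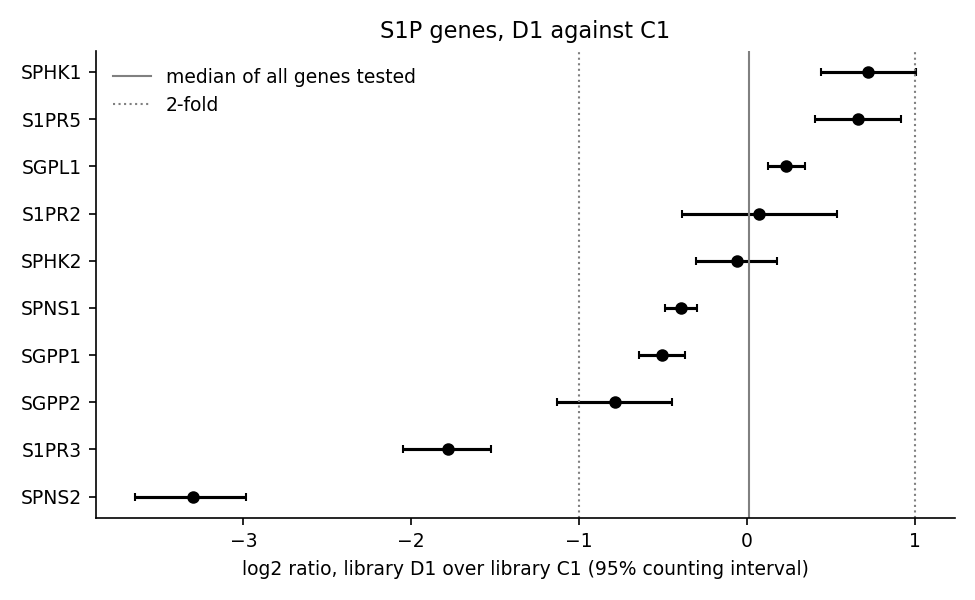
Log2 ratio of D1 over C1 for the 10 S1P genes in order, with 95% counting intervals. The solid line is the median of all genes tested (0.01) and the dotted lines mark 2-fold. SPNS2 (-3.30) and S1PR3 (-1.78) lie beyond the lower line and no gene lies beyond the upper.

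Counted together, 2 of the 10 genes were at least 2-fold lower in D1, SPNS2 and S1PR3, beside 4.54% of all 13225 genes past the filter. None of the 10 was at least 2-fold higher, beside 2.4% of all genes. Since SPNS2 chose the list on this contrast, nothing is read from these counts. The median log2 ratio of the 10 genes was -0.23, and that of all genes tested was 0.01. By their ratios 4 lay above 0 and 6 below, beside 51% of all genes above 0. Only SPNS1 and SPHK1 had counts within 0.005 of a whole number in both libraries. The other 8, SPNS2 included, had fractions, which an estimator can give when it splits reads with transcripts of other genes. Which genes shared such reads was not tested.

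**Figure D4:**
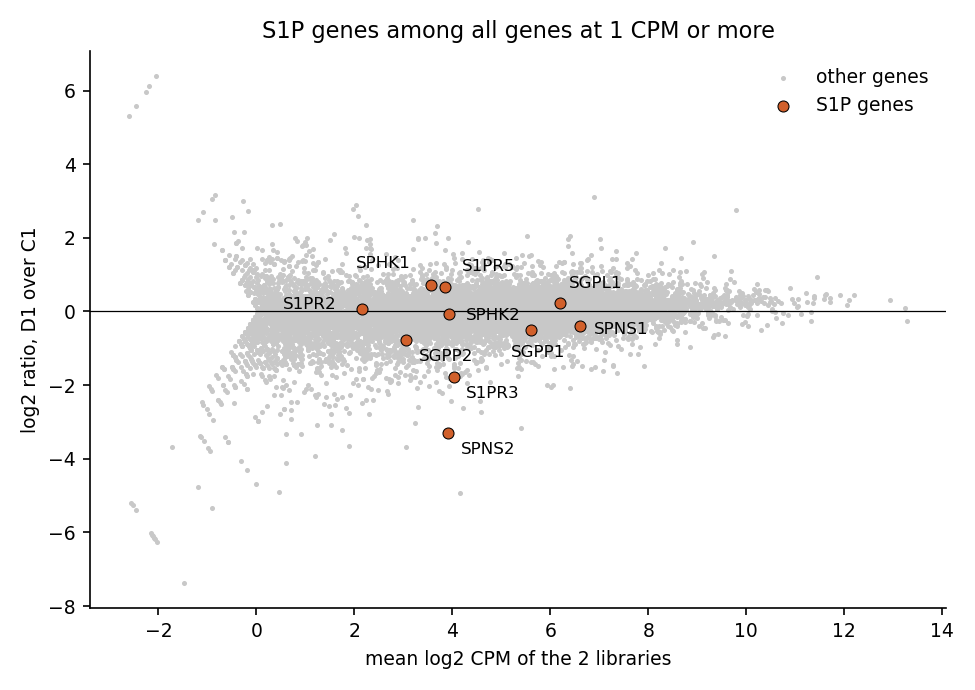
Log2 ratio of D1 over C1 against the mean log2 CPM of both libraries for all genes reaching 1 CPM in either library (grey), with the 10 S1P genes in orange. SPNS2 lies near the lower edge of the cloud at its abundance, S1PR3 below its body, and the other 8 genes within it.

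The 4 protein-coding genes nearest to SPNS2 over both log2 CPM values, a measure of likeness over 2 libraries, were COL8A1, CGN, TGFB2 and STEAP4. COL8A1, a short-chain collagen gene, had 690 and 119 reads (log2 ratio -2.44, distance 0.61 in log2 units). CGN, which encodes the tight junction protein cingulin, had 867 and 133 reads (-2.61, distance 0.64). TGFB2, a transforming growth factor gene, had 562 and 113 reads (-2.22, distance 0.78), and STEAP4, a metalloreductase gene, had 525 and 111 (-2.15, distance 0.86). Each differed by less than SPNS2.

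The rest of the sphingolipid pathway was described by 7 lists with 87 genes, of which 85 were in the table and 76 passed the filter. Over these lists 1 gene was at least 2-fold higher in D1 and 7 were at least 2-fold lower, beside 2.4% and 4.54% of all genes. Ceramide synthesis, which feeds the pathway, had 2 of 15 genes at least 2-fold lower and 1 higher, with a median log2 ratio of 0.15. Both lower genes encode small activating subunits of serine palmitoyltransferase, the enzyme of the first step. SPTSSA had 3153 reads in C1 and 1062 in D1 (log2 ratio -1.48, interval -1.58 to -1.38). SPTSSB had 183 and 25 reads (-2.76, interval -3.45 to -2.17). The core subunit genes, named with their values known, lay closer to equality, with SPTLC1 at 1885 and 2357 reads (0.41), SPTLC2 at 1396 and 1311 (-0.00044) and SPTLC3 at 68 and 56 (-0.19). The higher gene was CERS6, a ceramide synthase that makes ceramides with shorter acyl chains, with 825 and 1565 reads (1.01, interval 0.89 to 1.14); it was just past 2-fold, and under it with plain library totals, TPM or FPKM.

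Genes that turn ceramide into other sphingolipids or back had 3 of 16 members lower by at least 2-fold, beside 4.54% of all genes. None was higher by as much, and the median was -0.27. UGCG, the synthase of glucosylceramide, had 1370 reads in C1 and 438 in D1 (-1.55, interval -1.71 to -1.40). The acid sphingomyelinase gene SMPD1 had 285 and 130 reads (-1.04, interval -1.35 to -0.74), and the neutral sphingomyelinase gene SMPD3 had 39 and 17 (-1.08, interval -2.02 to -0.25). Ceramidases release the sphingosine that SPHK1 and SPHK2 use. None of the 4 measured ceramidase genes was past 2-fold, beside 2.4% of all genes higher and 4.54% lower, and their median was -0.29. The acid ceramidase gene ASAH1 had a ratio of -0.39, the Golgi enzyme gene ACER2 -0.38 and the alkaline enzyme gene ACER3 0.48.

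In the list of other carriers and receptors of S1P, 5 genes passed the filter, and no receptor was among them. None of the 5 was past 2-fold, beside 2.4% of all genes higher and 4.54% lower, and their median was -0.33. MFSD2A, a transporter of lysophosphatidylcholine related to an S1P exporter of blood cells, had a ratio of 0.54, the sterol transporter gene ABCA1 -0.50 and the transporter gene ABCG2 -0.35. ABCC1, a transporter also reported to export S1P and named after its value was seen, had 2068 and 1990 reads (0.03), and MFSD2B, the blood cell exporter, had 14 and 5. Several lipid phosphate phosphatases remove phosphate from S1P outside the cell. Of the 7 measured genes in their list none was past 2-fold, beside 2.4% of all genes higher and 4.54% lower. The list median was -0.36. PLPP3 had 550 and 304 reads (-0.76), PLPP5 227 and 130 (-0.71) and PLPP2 837 and 548 (-0.52).

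Signal transducers of the receptors had 1 of 19 members lower by at least 2-fold, beside 4.54% of all genes. None was higher by as much, and the median was -0.05. The lower member was ARRB1, a beta-arrestin that desensitizes G protein-coupled receptors, with 78 and 18 reads (-2.00, interval -2.85 to -1.27). The inhibitory G protein subunit gene GNAI1 had 491 and 704 reads, a ratio of 0.61. The system of lysophosphatidic acid, a related signalling lipid, had 1 of 10 members lower by at least 2-fold, beside 4.54% of all genes. None was higher by as much, and the median was -0.03. The member lower by that much was LIPH, a phospholipase that makes the lipid, with 134 and 51 reads (-1.29, interval -1.80 to -0.83). Its receptor genes LPAR6 and LPAR3 had ratios of -0.86 and 0.65.

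**Figure D5:**
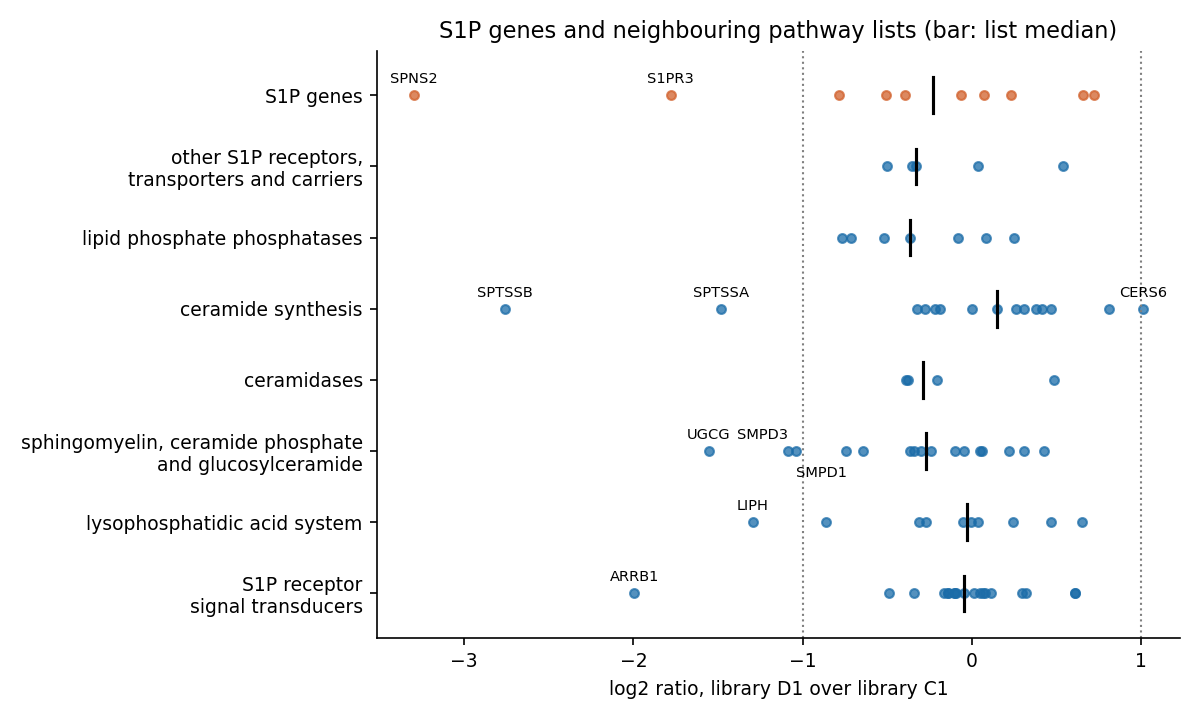
Log2 ratio of D1 over C1 for each gene past the filter in the S1P set (orange) and 7 related lists (blue), with a black bar at each list's median and dotted lines at 2-fold. Genes past 2-fold are named, and the small serine palmitoyltransferase subunits SPTSSB (-2.76) and SPTSSA (-1.48) lie far from the other ceramide synthesis genes.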

How the data were processed

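RNA-seq of FaDu cells gave 1 deposited table with 2 libraries. Per the file headers, the authors deposited estimated counts without normalization, TPM values and FPKM values. The tools named in the submitters' processing notes are Bowtie2 and RSEM, with the build hg38; no version or annotation is given in the sources used here. Library totals were 18189742 and 18560024 estimated counts. Of the gene identifiers, 16887 (99.6%) matched RefSeq of GRCh38.p14, which gave coordinates and promoters. GENCODE v29 gave strands.

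Counts were rounded to whole numbers and scaled by TMM factors of 1.04 (C1) and 0.960 (D1), computed with edgeR 4.0.16 (R 4.3.3). Log2 ratios had 0.5 counts added per library. Their intervals are exact Clopper-Pearson intervals of the D1 share of a gene's reads, expressed as ratios; TPM intervals are exact Poisson intervals of the counts, and ratios of ratios have exact conditional intervals (SciPy 1.17.1). PCR reads are not independent molecules, so all of these cover counting error only. No test and no p-value could be had with 1 library per group. The interval and 2-fold steps were run on simulated Poisson counts. That is the error the intervals assume, so the run says nothing about error of other kinds.

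Named genes were the 10 members, up to 3 genes per related pathway list with the largest absolute ratio, and the 4 nearest to SPNS2; all other genes in the text were picked with their values known, and a gene that the rule selects is not reported here. The members and lists were chosen with earlier results of these data known. The alternatives were plain library totals, DESeq2 1.42.0 size factors, the deposited TPM and FPKM, 5 counts added, other filters, whole counts only and a 1.5-fold threshold.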

Additional observations from a re-analysis of the deposited data

How the results depend on the processing

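The SPNS2 log2 ratio ran from -3.51 to -3.23 and that of S1PR3 from -1.93 to -1.75 over the scalings, deposited units, added counts and filters tried, except whole counts only, which leaves both genes out. The median of all genes moved from 0.01 to -0.11 with plain library totals, -0.14 with the deposited TPM and -0.11 with FPKM. Of 71 alternative values of single S1P genes, 7 moved past their counting interval, for SPNS1, SGPL1 and SGPP1, and none changed the direction of a gene past 2-fold; the sign of S1PR2 changed with scaling. The 7 ratios of ratios moved by less than their intervals with TPM, FPKM or 5 counts added.

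With whole counts only, 2 S1P genes were left and none of them was 2-fold lower (0). The related lists then had 0 higher and 2 lower, and all genes 179 higher and 334 lower of 5895. At 1.5-fold, 2 S1P genes were higher and 3 lower, the related lists had 5 higher and 12 lower, and all genes had 1053 higher (7.96%) and 1402 lower (10.6%). Without a filter, the related lists had 3 higher and 13 lower of 85, and all genes 1040 higher and 1669 lower of 16951. At 10 CPM or more, the related lists had 1 higher and 3 lower, and all genes 171 higher and 216 lower of 9855. How many list genes were left at 10 CPM or with whole counts was not worked out, so those list counts give no share. With plain library totals, TPM or FPKM, the related lists had 0 higher, since CERS6 was just past 2-fold. No replicate could be left out with 1 library per group. No paired analysis was possible because each group has 1 library.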
